A study of Mus musculus with 4 samples.

Results

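Bone matrix and mineralization genes were followed at the level of DNA methylation in mouse C3H10T1/2 mesenchymal stem cells (MSCs), a cell line that can be driven towards osteoblasts (OBs). The 10 genes were set by name and looked up by their GENCODE vM21 Ensembl identifiers: Col1a1, Col1a2, Sparc, Bglap, Bglap2, Spp1, Ibsp, Dmp1, Alpl and Enpp1. Each gene can have a level for its promoter, 5′ UTR, exons, introns and 3′ UTR, so 50 entries were possible, and 31 of them were listed in at least 1 library, out of 79357 such entries for 28883 genes in the whole series. All 4 libraries held 23 of the members' entries, 8 were held by some libraries and 19 by none. CpG islands and shores were added where they overlapped a member gene or its promoter, which gave 2 islands and 2 shores, at Alpl and Enpp1.

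The cells received a non-targeting control siRNA (NC) or an siRNA against DNA methyltransferase 1 (siDNMT1) for 48 h and were then left uninduced or kept for 3 days in OB induction medium, which held dexamethasone, β-glycerophosphate (10 mM) and ascorbic acid (50 µM). The 4 conditions were thus NC uninduced, siDNMT1 uninduced, NC OB and siDNMT1 OB, all on the same cell line. The harvest time of the uninduced cells is not given, so OB induction cannot be told apart from time in culture or since transfection. Each condition was 1 bisulfite library, so no difference below has a replicate check and no p-value was computed. The methylation level is the fraction of methylated CpG cytosines in an entry, from 0 to 1, and no read counts come with the deposited values, so the depth of a level is not known.

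The organic matrix of bone is mostly type I collagen, with smaller amounts of noncollagenous proteins that bind collagen, mineral or cells. Osteoblasts lay it down and then mineralize it. Mineral growth is held back by pyrophosphate, which ENPP1 makes from nucleotides outside the cell and which tissue-nonspecific alkaline phosphatase, the product of Alpl, breaks down to phosphate. Bisulfite sequencing tells methylated cytosines, which resist the chemical, from unmethylated ones, which it changes. DNMT1 copies methylation to the new strand when DNA is replicated, and methylation of CpGs in CpG-rich promoters is known to go with silence of the gene.

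The libraries listed from 155398 to 159705 regions of all kinds and from 25 to 29 of the members' entries, in both cases fewest in siDNMT1 OB. The median promoter level over 20152 promoters with 4 values was 0.191 in NC uninduced, 0.188 in siDNMT1 uninduced, 0.174 in NC OB and 0.164 in siDNMT1 OB. The libraries measure DNA methylation alone, so neither the loss of DNMT1 nor the identity of the cells could be checked against markers.

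The promoters of this set ranged from dense to sparse in CpG, and not all of them had a level. The bases just upstream of the start are printed for Alpl and Enpp1, which begin in CpG islands and had a promoter level in every library, and for Bglap, Spp1 and Ibsp, which had none. They are RefSeq promoter windows on GRCm38.p6, written 5′ to 3′ on the strand of the gene with each CpG in capitals, from chr4:137796385-137796634 (minus strand) for Alpl, chr10:24712160-24712409 (minus) for Enpp1, chr3:88384467-88384716 (minus) for Bglap, chr5:104434861-104435110 (plus) for Spp1 and chr5:104299037-104299170 (plus) for Ibsp. The Ibsp window was shortened to 134 bases, where the GENCODE gene begins.
Alpl: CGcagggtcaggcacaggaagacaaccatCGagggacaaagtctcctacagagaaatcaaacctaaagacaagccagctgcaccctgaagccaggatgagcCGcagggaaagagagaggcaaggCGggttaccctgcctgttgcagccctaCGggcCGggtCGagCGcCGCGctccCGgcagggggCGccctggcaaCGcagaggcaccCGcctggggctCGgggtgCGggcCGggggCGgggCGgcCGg
Enpp1: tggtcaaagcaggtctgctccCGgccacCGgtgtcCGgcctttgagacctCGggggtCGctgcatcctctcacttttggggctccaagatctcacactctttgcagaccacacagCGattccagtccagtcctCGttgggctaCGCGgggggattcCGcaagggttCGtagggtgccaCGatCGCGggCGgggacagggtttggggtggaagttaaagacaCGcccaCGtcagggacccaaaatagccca
Bglap: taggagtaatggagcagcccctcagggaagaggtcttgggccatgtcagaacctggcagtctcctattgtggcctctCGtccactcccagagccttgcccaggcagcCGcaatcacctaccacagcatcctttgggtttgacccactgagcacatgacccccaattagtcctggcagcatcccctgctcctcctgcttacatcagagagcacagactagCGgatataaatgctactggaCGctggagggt
Spp1: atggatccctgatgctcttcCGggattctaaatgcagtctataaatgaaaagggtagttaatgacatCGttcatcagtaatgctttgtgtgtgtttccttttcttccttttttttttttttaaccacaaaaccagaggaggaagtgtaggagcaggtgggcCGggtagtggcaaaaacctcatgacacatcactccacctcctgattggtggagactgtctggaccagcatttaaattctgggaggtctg
Ibsp: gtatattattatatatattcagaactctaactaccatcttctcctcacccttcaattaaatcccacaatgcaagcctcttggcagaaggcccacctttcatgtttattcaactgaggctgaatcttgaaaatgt

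The Alpl window holds 20 CpGs in 250 bases and that of Enpp1 holds 17, against a median of 6 over all 32851 RefSeq windows of that length. The Bglap window holds 4 CpGs, the Spp1 window 3 and the shortened Ibsp window 0. A window with at most 3 CpGs is common, at 37.8% of all windows. The letters CCGG, which read the same on both strands, stand 4 times in the Alpl window, 3 times in that of Enpp1 and 2 times in that of Spp1, and are absent from that of Bglap, while 47.1% of all windows hold them at least once. The letters TGTGGT or ACCACA, the core to which RUNX factors such as the osteoblast regulator RUNX2 bind, were found once each in the Bglap, Spp1 and Enpp1 windows and not in that of Alpl, and in 14.0% of all windows. These matches describe the letters and are not binding sites shown to be used. RefSeq windows for 8 of the 10 genes were matched, and Col1a1 and Bglap2 had no entry.

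Over the full 2 kb upstream of the GENCODE start, the genes fell into a listed and an unlisted set. Promoter levels were listed in all 4 libraries for Alpl (47 CpGs, 7 CCGG), Enpp1 (40 and 7), Col1a1 (33 and 5) and Sparc (21 and 3). Col1a2, with 14 CpGs and 4 CCGG, was listed in 3 libraries. No library listed the promoter of Dmp1 (33 and 1), Spp1 (25 and 4), Bglap (21 and 1), Ibsp (17 and 0) or Bglap2 (16 and 1). The 2 osteocalcin genes, osteopontin, bone sialoprotein and dentin matrix protein, all best known as products of mature bone cells, therefore had no promoter value to compare. The median coding promoter holds 29 CpGs and 2 CCGG. Of coding promoters with no CCGG 17.3% were listed in all 4 libraries, of those with a single one 35.4%, of those with 2 to 3 69.2% and of those with 4 to 7 91.7%. Listing rose with CpG number as well, at 31.6% with 10 to 19 CpGs, 68.6% with 20 to 39 and 91% with 40 to 79. CCGG number and CpG number were not told apart. Of coding promoters with 20 to 39 CpGs, as at Spp1 and Dmp1, 28.7% were listed in no library. Spp1 was unlisted although 4 CCGG lie in its 2 kb, which held for 6.16% of promoters with 4 to 7. The RefSeq start of Dmp1 lies 5038 bp upstream of its GENCODE start, and the 2 kb before it holds 15 CpGs and 1 CCGG.

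**Figure D1:**
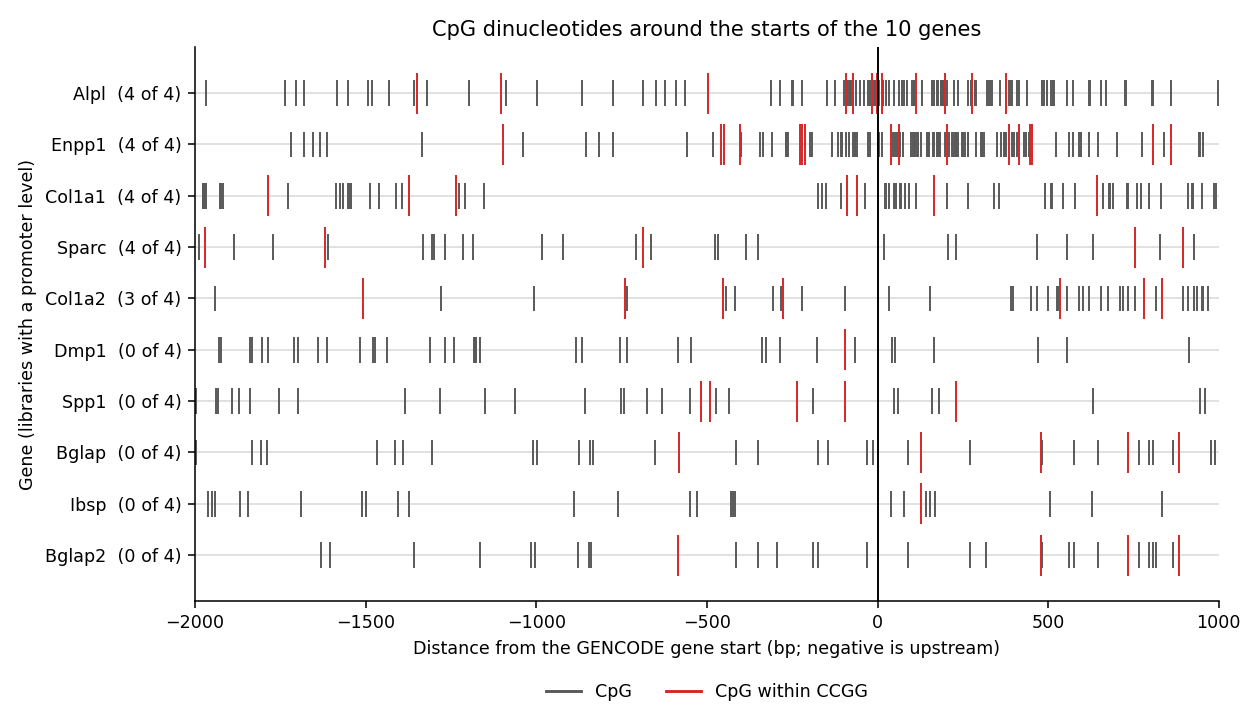
Each tick is a CpG from 2000 bp upstream to 1000 bp downstream of the GENCODE start of a gene (x axis, bp), red where it lies in CCGG, with genes ordered by libraries with a promoter level. Alpl and Enpp1 are densest at the start, with 47 and 40 CpGs upstream, and the 5 genes with no promoter level are at the bottom with 16 to 33.

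Exons and introns were missing for fewer members than promoters were, and both kinds of UTR for more. Exon levels were listed in all 4 libraries for 7 members, intron levels for 5, 5′ UTR levels for 3 and 3′ UTR levels for 4, where 69.8%, 69.7%, 52.3% and 19.8% of all 21938 coding genes had them. Promoter levels, with 4 of 10 members, stood beside 61.9% of coding genes. The listed levels ran from 0 at the Col1a2 exons in NC OB to 0.938 at the Bglap2 3′ UTR in NC OB.

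**Figure D2:**
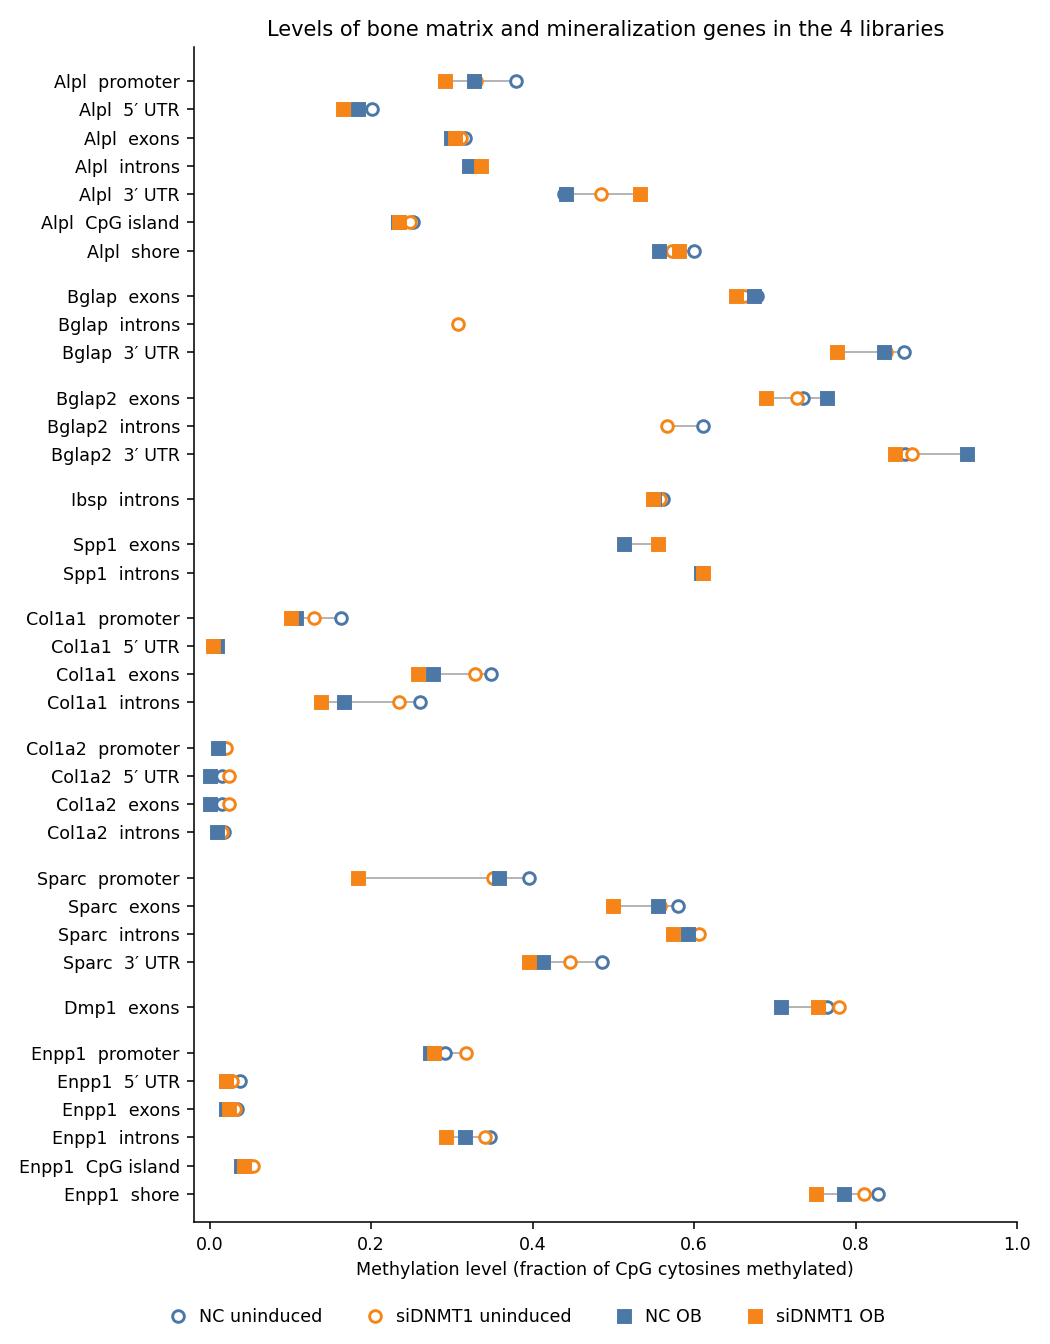
Methylation level (x axis, fraction of CpG cytosines methylated) of every listed entry of the 10 genes and of the islands and shores at Alpl and Enpp1, with 1 point per library (circles uninduced, squares OB; blue NC, orange siDNMT1) and no error bars since each condition is 1 library. Libraries lie close together at most entries, and the widest gap is at the Sparc promoter, where siDNMT1 OB is at 0.183 and the other libraries are between 0.351 and 0.396.

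The type I collagen genes had low levels at their starts in the libraries that listed them. Col1a1 (ENSMUSG00000001506, chr11:94936224-94953042, plus strand) encodes the chain that makes up most of the type I collagen triple helix. Its 5′ UTR, with 10 CpGs, had a level of 0.00513 in NC uninduced, 0.00625 in siDNMT1 uninduced, 0.00920 in NC OB and 0.00417 in siDNMT1 OB. All 4 libraries were thus close to 0, and 1.78% of 5′ UTRs had a lower mean. The promoter stood at 0.162 in NC uninduced, 0.129 in siDNMT1 uninduced, 0.107 in NC OB and 0.1002 in siDNMT1 OB. The OB minus uninduced difference there was -0.0554 with NC and -0.0290 with siDNMT1.

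The Col1a1 body followed the same order. Its introns stood at 0.260 in NC uninduced, 0.234 in siDNMT1 uninduced, 0.167 in NC OB and 0.138 in siDNMT1 OB, and its exons at 0.348, 0.328, 0.277 and 0.258 in that order. In each class the OB level was lower with both siRNAs, and 48.6% of all 76155 entries were lower in both pairs. The OB minus uninduced difference at the introns was -0.0934 with NC and -0.0966 with siDNMT1, just short of the 0.1 at which a difference was called, and differences at least that large were seen at 2.08% and 3.63% of introns. At the exons it was -0.0715 and -0.0702. These pairs share no library. The siDNMT1 minus NC differences at the introns were smaller, at -0.0255 uninduced and -0.0287 after induction.

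Col1a2 (ENSMUSG00000029661, chr6:4504814-4541544, plus strand) encodes the other chain of type I collagen. It was not listed in siDNMT1 OB for any class. Its promoter stood at 0.0155 in NC uninduced, 0.0202 in siDNMT1 uninduced and 0.00976 in NC OB, and its introns at 0.0183, 0.0150 and 0.00966. The 5′ UTR and exon entries were identical, at 0.0149, 0.0242 and 0, and may hold the same cytosines. Every listed Col1a2 value was thus near 0, and with a library missing none entered the counts of differences. The RefSeq start lies 804 bp downstream of the GENCODE start, and which start the promoter entry uses is not given. The 2 kb upstream of the RefSeq start holds 32 CpGs and 5 CCGG, against 14 and 4 for the GENCODE start.

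Sparc (ENSMUSG00000018593, chr11:55394500-55423183, minus strand) encodes osteonectin, a matrix protein that binds collagen and calcium. Its promoter held the widest gap of the set. The level was 0.396 in NC uninduced, 0.351 in siDNMT1 uninduced and 0.359 in NC OB, and 0.183 in siDNMT1 OB. The library with both treatments stood apart from the other three, which lay close together. With OB induction the siDNMT1 minus NC difference was -0.176, against -0.0450 without it. Among all promoters 1.40% were lower by at least 0.1 in that comparison, and among the 4731 promoters with a mean level from 0.2 to 0.5, where that of Sparc (0.322) lies, 2.71% were. The OB minus uninduced difference was -0.168 with siDNMT1 and -0.0369 with NC, and a fall of at least 0.1 in the siDNMT1 cells was seen at 2.33% of all promoters and at 5.31% of those with a mean level from 0.2 to 0.5. Both large differences rest on the same siDNMT1 OB library, which listed the fewest regions, and the part of that library in the result was not tested. The number of calls behind the level in that library is not given.

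The gap between both siDNMT1 differences at the Sparc promoter was -0.131, and 2.15% of promoters had a gap of at least 0.1 in that direction. Elsewhere in the gene the same library was also lowest, by less. The Sparc exons stood at 0.580 in NC uninduced, 0.557 in siDNMT1 uninduced, 0.555 in NC OB and 0.4999 in siDNMT1 OB, and the introns at 0.593, 0.606, 0.592 and 0.573. The 3′ UTR, with 13 CpGs, stood at 0.486, 0.447, 0.412 and 0.395 and was lower in OB libraries by -0.0731 with NC and -0.0516 with siDNMT1. The promoter entry is less certain in its place than in its value. The RefSeq start of Sparc lies 3103 bp downstream of the GENCODE start, the 2 kb upstream of each holds 29 and 21 CpGs, and the source for the deposited promoter was not given.

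Alpl (ENSMUSG00000028766, chr4:137741733-137796384, minus strand), whose phosphatase is the usual early marker of OB differentiation, was more methylated at its 3′ UTR than at its 5′ UTR. Genes at large had a wider contrast, with NC uninduced medians of 0.0286 over 5′ UTRs and 0.675 over 3′ UTRs. Of all 5′ UTRs 75% had a lower mean than that of Alpl, and of all 3′ UTRs 23.4% did. The Alpl promoter stood at 0.380 in NC uninduced, 0.330 in siDNMT1 uninduced, 0.328 in NC OB and 0.292 in siDNMT1 OB. The library with neither treatment was highest and the one with both was lowest, as in the medians over all promoters. The siDNMT1 minus NC difference was -0.0498 uninduced and -0.0358 after induction, and 6.30% and 16.9% of promoters differed as much. The promoter window is made of 99 bp of the island at chr4:137795867-137796483, with 16 CpGs, and 1901 bp of the shore at chr4:137796484-137798484, with 31. The island stood at 0.252, 0.248, 0.233 and 0.235 and the shore at 0.600, 0.573, 0.557 and 0.582 in the same order of libraries. In OB libraries neither was lower with siDNMT1 (+0.00142 and +0.0251), unlike the promoter entry that covers parts of both.

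The 5′ UTR of Alpl stood at 0.201 in NC uninduced, 0.184 in siDNMT1 uninduced, 0.183 in NC OB and 0.165 in siDNMT1 OB, in the same order as the promoter. Its exons lay between 0.299 and 0.316 and its introns between 0.321 and 0.336 over the 4 libraries. The 3′ UTR, with 8 CpGs, stood at 0.438 in NC uninduced, 0.485 in siDNMT1 uninduced, 0.442 in NC OB and 0.533 in siDNMT1 OB. Here the siDNMT1 minus NC difference was +0.0463 uninduced and +0.0918 after induction, the opposite direction to the promoter of the same gene. Of all 76155 entries 16.9% were higher with siDNMT1 in both settings. Differences as large were seen at 12.1% and 4.55% of 3′ UTRs.

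Enpp1 (ENSMUSG00000037370, chr10:24637914-24712159, minus strand), whose enzyme makes the pyrophosphate that alkaline phosphatase removes, had a sharper contrast between its island and its flank. The island at chr10:24711706-24712429, with 78 CpGs, stood at 0.0497 in NC uninduced, 0.0539 in siDNMT1 uninduced, 0.0393 in NC OB and 0.0422 in siDNMT1 OB. The shore next to it, chr10:24712430-24714430, stood at 0.828, 0.811, 0.786 and 0.751. The promoter window takes 20 CpGs from each, and its level lay between them, at 0.292, 0.317, 0.273 and 0.278. The 5′ UTR and exons were between 0.0202 and 0.0378 in every library and the introns at 0.348, 0.341, 0.316 and 0.293.

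At Enpp1, OB libraries were lower than uninduced libraries in all 4 classes, with both siRNAs, by at most -0.0480 (introns, siDNMT1). Of all 76155 entries 48.6% were lower in both pairs. The Enpp1 5′ UTR and exon levels were both near 0 and may share cytosines. The siDNMT1 minus NC difference at the promoter was +0.0255 uninduced and +0.00508 after induction, and at the shore -0.0176 and -0.0342. None reached 0.1. Neither the Alpl nor the Enpp1 island was called in any of the 4 comparisons (0 of 2). Over 14095 islands 0.482% differed by at least 0.1 between siDNMT1 and NC uninduced and 0.681% did after induction, and 1.18% did between OB and uninduced NC cells and 1.26% between OB and uninduced siDNMT1 cells.

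The osteocalcin genes Bglap (ENSMUSG00000074483, chr3:88383501-88384464, minus strand) and Bglap2 (ENSMUSG00000074486, chr3:88377736-88378699, minus strand), which encode the calcium-binding protein secreted by mature OBs, were among the most methylated of the set. The Bglap 3′ UTR stood at 0.861 in NC uninduced, 0.838 in siDNMT1 uninduced, 0.835 in NC OB and 0.777 in siDNMT1 OB. The Bglap2 3′ UTR stood at 0.861, 0.870, 0.938 and 0.848, and 95.8% of 3′ UTRs had a lower mean. Each of these 3′ UTRs holds 2 CpGs, so their levels rest on very few positions. The exons stood at 0.678, 0.662, 0.675 and 0.652 for Bglap and at 0.735, 0.728, 0.765 and 0.689 for Bglap2. In OB cells the siDNMT1 minus NC difference was -0.0892 at the Bglap2 3′ UTR, -0.0758 at its exons and -0.0582 at the Bglap 3′ UTR, while in uninduced cells the same entries differed by +0.00905, -0.00776 and -0.0227. The genes are identical at 939 of 964 aligned positions (97.4%), so reads may not be assigned to the right copy with certainty and the entries are not independent. Introns were listed in only some libraries: those of Bglap in siDNMT1 uninduced (0.308), and those of Bglap2 in NC uninduced (0.611) and siDNMT1 uninduced (0.567).

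Spp1, Ibsp and Dmp1 encode osteopontin, bone sialoprotein and dentin matrix protein, acidic phosphoproteins that bind mineral, and lie together on chromosome 5. Dmp1 (ENSMUSG00000029307, chr5:104202613-104214102, plus strand), a gene of osteocytes, was listed for its exons only, at 0.764 in NC uninduced, 0.779 in siDNMT1 uninduced, 0.707 in NC OB and 0.753 in siDNMT1 OB. Both siDNMT1 levels were above their NC counterparts (+0.0149 and +0.0456) and both OB levels below the uninduced ones (-0.0566 and -0.0259). Of all exon entries 89.8% had a lower mean. Ibsp (ENSMUSG00000029306, chr5:104299171-104311469, plus strand) was listed for its introns only, and there the libraries were nearly level at 0.561, 0.557, 0.550 and 0.549. Spp1 (ENSMUSG00000029304, chr5:104435118-104441050, plus strand) was listed in OB libraries alone, with exons at 0.514 in NC OB and 0.556 in siDNMT1 OB and introns at 0.608 and 0.611. Since depth is unknown, its absence from the uninduced libraries says nothing of its level there.

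Differences of at least 0.1 between siDNMT1 and NC were about as rare in these genes as in all genes, and 1 entry reached that size. In uninduced cells 0 of the 23 entries differed by at least 0.1 between siDNMT1 and NC, where 1.54% of all 76155 entries did. After OB induction 1 did, the Sparc promoter, where 2.16% did. By sign, 17 entries were lower and 6 higher with siDNMT1 in uninduced cells, with a median difference of -0.0102, beside 55.9% lower and a median of -0.00158 over all entries. In OB cells 16 were lower and 7 higher, with a median of -0.0182, beside 66.8% and -0.00619. The direction was lower in both settings for 13 entries and higher in both for 3, where 39.8% and 16.9% of all entries were, and 0 were lower by 0.05 or more in both, where 0.961% were. The entries of 1 gene share DNA and are not independent, and the counts carry no test.

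With OB induction, 18 of the 23 entries were lower in both pairs of libraries, while differences of at least 0.1 were again about as rare as over all entries. In NC cells 0 of 23 entries differed by at least 0.1, where 2.14% of all entries did, and in siDNMT1 cells 1 did, again the Sparc promoter, where 3.39% did. Levels were lower in OB for 19 entries and higher for 4 in NC cells (median -0.0176), and lower for 21 and higher for 2 in siDNMT1 cells (median -0.0290). Over all entries 61.7% and 72.0% were lower, with medians of -0.00339 and -0.00800. Of all entries 48.6% were lower in both pairs. The Col1a1 exons, the Col1a1 introns and the Sparc 3′ UTR were lower by at least 0.05 in both (3 of 23), where 3.50% of all entries were. The 4 member promoters had a median difference of -0.0446 in NC cells and -0.0387 in siDNMT1 cells, beside -0.00320 and -0.00654 over all promoters, and 3 of the 4 were above the median level of all promoters in NC uninduced.

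**Figure D3:**
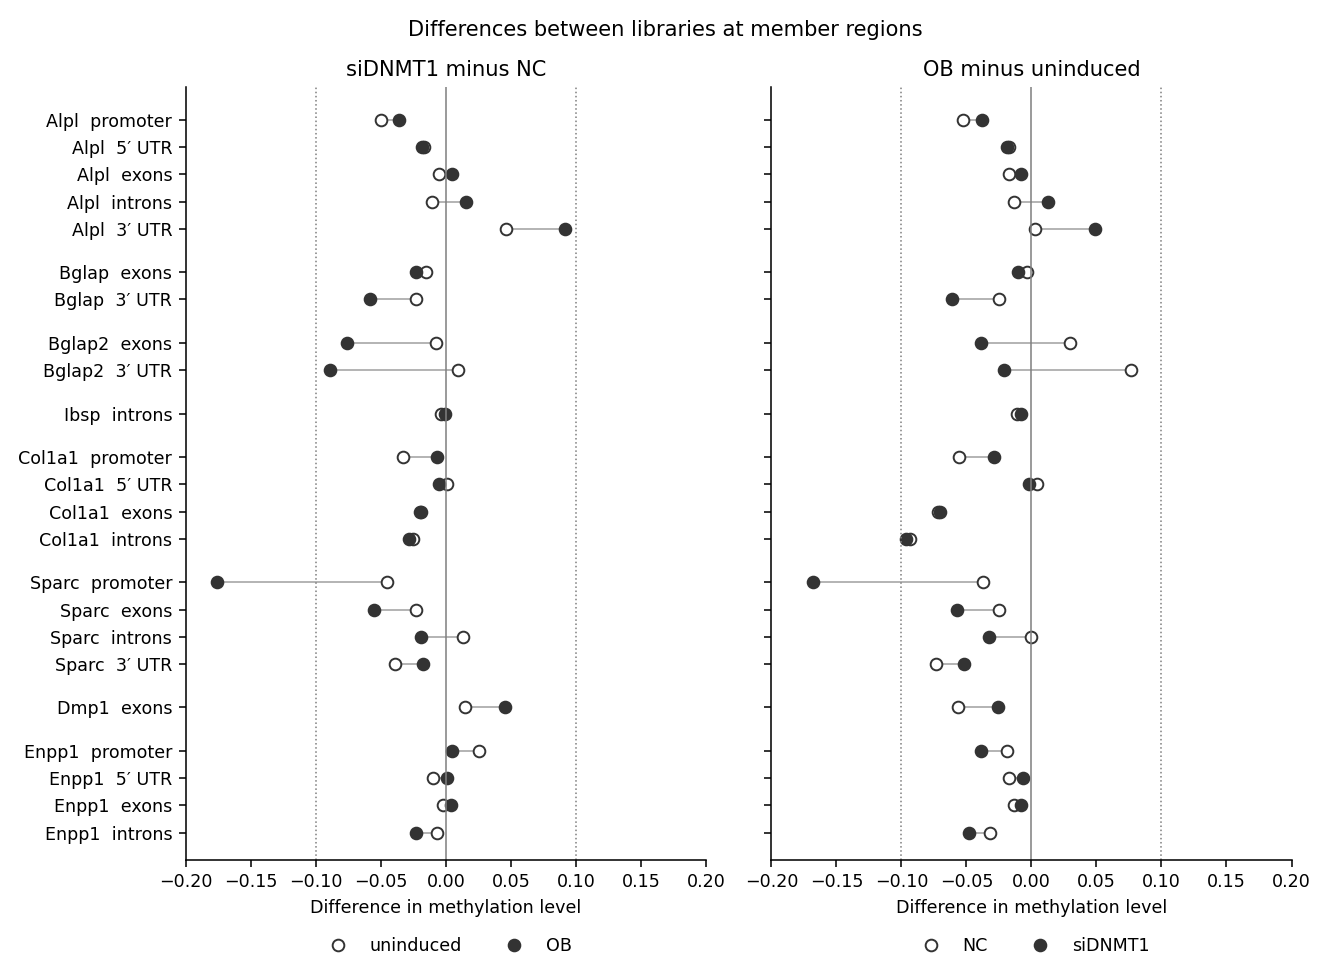
Difference in methylation level (x axis, fraction) at the 23 entries with a value in all 4 libraries, siDNMT1 minus NC on the left (open uninduced, filled OB) and OB minus uninduced on the right (open NC, filled siDNMT1), with dotted lines at 0.1 either way. The Sparc promoter is the sole point past a dotted line in each panel, at -0.176 and -0.168, and the Col1a1 introns lie at -0.0934 and -0.0966 on the right.

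Promoter level did not simply follow CpG number among the members. Over coding promoters listed in all 4 libraries the median of the mean level fell with CpG number. It was 0.252 with 10 to 19 CpGs, 0.169 with 20 to 39 and 0.0599 with 40 to 79. Counted from the GENCODE start, Col1a2 had the fewest CpGs (14) and the lowest mean level (0.0152, over 3 libraries). Alpl had the most (47) and the highest (0.332). From its RefSeq start Col1a2 would have 32, and the start behind the entry is not given. Sparc with 21 CpGs and Enpp1 with 40 had means of 0.322 and 0.290, and Col1a1 with 33 had 0.125. Among promoters with a level in every library, 61.9% were below Alpl, 61.1% below Sparc, 58.6% below Enpp1 and 44.6% below Col1a1. Col1a2 was not placed, since siDNMT1 OB did not list it.

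**Figure D4:**
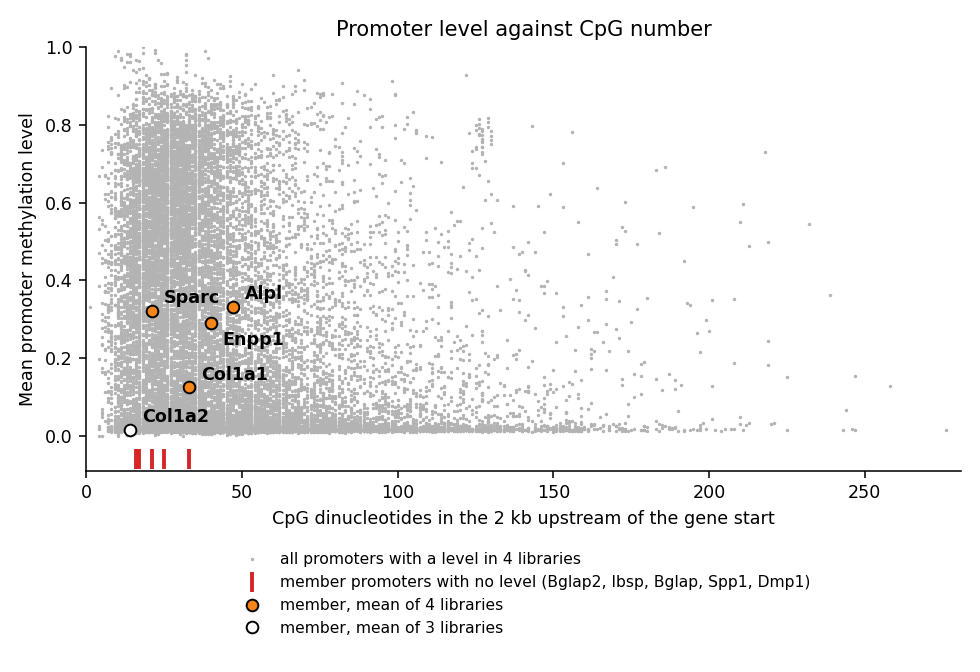
Mean promoter methylation level (y axis, fraction) against the number of CpGs in the 2 kb upstream of the gene start (x axis), for all promoters with a level in 4 libraries (grey), for member promoters (orange, 4 libraries; open, 3) and, as red ticks below, for the CpG numbers of the 5 members with no level. Alpl, Sparc and Enpp1 lie between 0.290 and 0.332 at 21 to 47 CpGs, and Col1a2 lies near 0 at 14. CpGs are counted from the GENCODE start, and from the RefSeq start Col1a2 has 32.

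Other genes of matrix and mineral were taken from 3 lists, with 27 genes in all, of which 19 had a promoter level in every library, 1 in some and 7 in none. None of the 19 was called in any comparison. Of all promoters, 1.48% were called between siDNMT1 and NC in uninduced cells and 2.19% in OB cells, and 2.17% were called between OB and uninduced in NC cells and 3.36% in siDNMT1 cells, so 0 of 19 is near the level of all promoters. Of 10 further noncollagenous matrix genes 3 were listed in all libraries and 6 in none (Mepe, Dspp, Omd, Ogn, Bgn and Dcn). The highest was Bglap3, the third gene of the osteocalcin cluster, at 0.738, 0.715, 0.711 and 0.715, and the lowest was Mgp, an inhibitor of soft tissue calcification, at 0.129, 0.134, 0.117 and 0.130 (NC uninduced, siDNMT1 uninduced, NC OB, siDNMT1 OB). Postn, which encodes periostin, stood at 0.603 in NC uninduced, 0.588 in siDNMT1 uninduced and 0.750 in NC OB and was not listed in siDNMT1 OB, which gives an OB minus uninduced difference of +0.147 in NC cells.

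Of 9 genes of phosphate and pyrophosphate handling, 8 were listed in all libraries, from Slc20a2, a phosphate transporter, at 0.0114 to 0.0151, up to Fgf23, the phosphate-lowering hormone of bone, at 0.721 to 0.745. The X-linked gene Phex had no promoter level. The 8 genes of collagen folding and processing were all listed, from Ppib, a collagen prolyl isomerase, at 0.00985 to 0.0205, up to Crtap, a partner of collagen prolyl hydroxylation, at 0.505 to 0.549. In siDNMT1 cells all 8 were lower in OB than uninduced (median -0.0226, lowest -0.0474), while in NC cells 6 were lower and 2 higher (median -0.00241). Of all promoters 73.1% and 63.4% were lower in these comparisons. With siDNMT1 against NC 7 of the 8 were higher in uninduced cells (median +0.00649) and 3 were higher in OB cells (median -0.00424), where 53.2% and 64.0% of all promoters were lower.

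**Figure D5:**
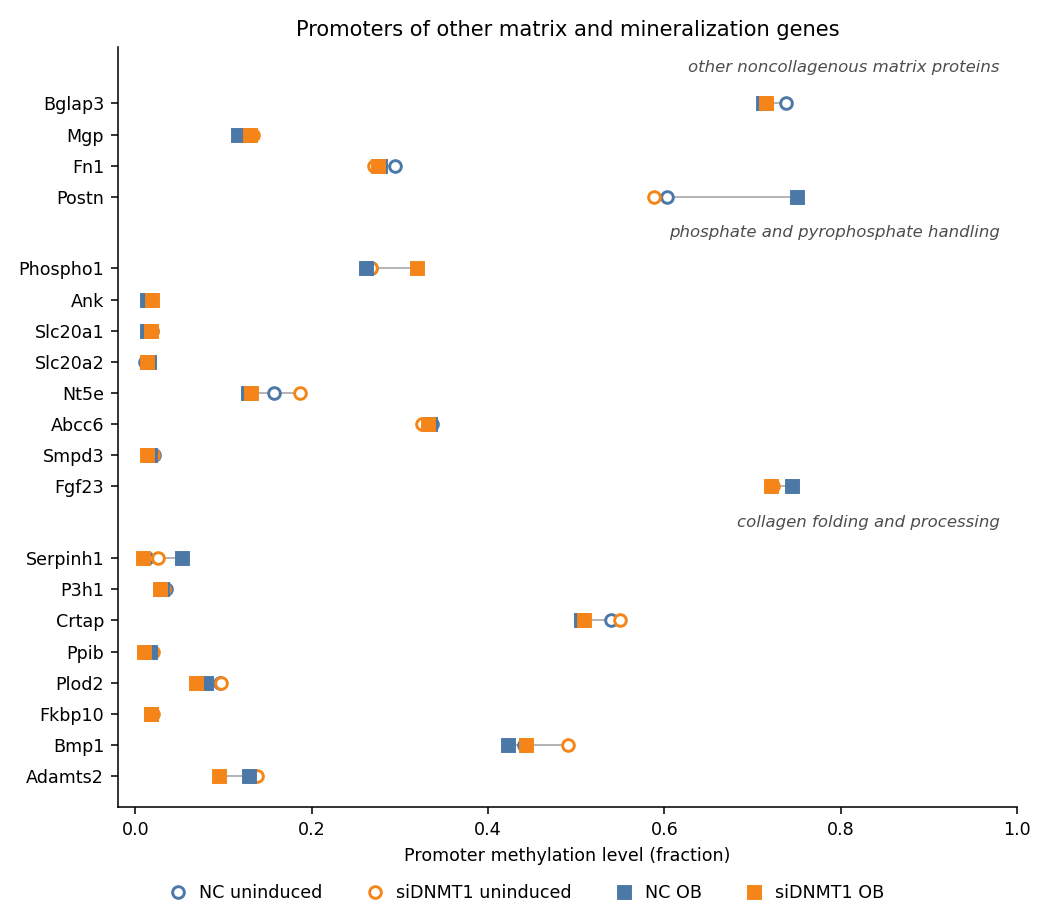
Promoter methylation level (x axis, fraction) of the listed genes of 3 other groups, with 1 point per library (circles uninduced, squares OB; blue NC, orange siDNMT1). Among genes of collagen processing, Ppib, Fkbp10, Serpinh1 and P3h1 lie closest to 0 and Crtap is highest at 0.505 to 0.549, and the widest gap is at Postn, from 0.588 to 0.750, where siDNMT1 OB has no value.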

How the data were processed

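Genomic DNA of 4 C3H10T1/2 cultures, 1 per condition, was bisulfite sequenced. The labels call the assay RRBS, while the protocol describes sonication to fragments of 200 to 300 bp. According to the submitters' processing notes, CASAVA, Trimmomatic (0.36) and Bismark (0.16.3) were used with mm10. For each region the authors deposited a methylated fraction of CpG, marked mCG/CG. The coverage minimum and the weighting of cytosines are not given in the sources used here, and no interval was computed.

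The 10 genes were matched by GENCODE vM21 identifier. Promoters were taken as the 2 kb upstream of the gene start. Island coordinates belong to GRCm38, since 14354 of 14354 islands begin and end with CG there. Differences were taken over entries with 4 levels and called from 0.1 in either direction. All members were named. Genes of the other lists were named where a promoter differed by at least 0.1, or where it was highest or lowest of its list. The members and lists were chosen with earlier results of these data known.

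Alternatives covered thresholds of 0.05 and 0.2, centring each library on its class median and other region classes. The functions were tested on simulated data. Python 3.11.15, pandas 2.3.3, numpy 2.4.6, biopython 1.88 and matplotlib 3.10.9 were used.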

Additional observations from a re-analysis of the deposited data

How the results depend on the processing

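Of 23 entries, a threshold of 0.05 called 6 between siDNMT1 and NC in OB cells, 7 between OB and uninduced NC cells and 6 between OB and uninduced siDNMT1 cells, where 10.1%, 10.2% and 14.7% of all entries were called. Between siDNMT1 and NC in uninduced cells it called 0, where 6.49% were. A threshold of 0.2 called 0 between siDNMT1 and NC in OB cells, where 0.473% were. It also called 0 between OB and uninduced siDNMT1 cells, where 0.687% were. Centring each library on the median of its class of region called 2 between siDNMT1 and NC in OB cells, since the Alpl 3′ UTR then stood at +0.116 beside the Sparc promoter at -0.166, where 1.98% of all entries were called. For siDNMT1 minus NC the median difference over member promoters was -0.0391 in uninduced cells and -0.0213 in OB cells. Over all promoters it was -0.000713 and -0.00371. The median over member promoters, taken as moved from a change of 0.01, became -0.00744 for siDNMT1 minus NC in uninduced cells when exons and introns replaced promoters. In OB cells it became -0.0113 after centring and -0.00689 without the Sparc promoter, an alternative chosen after seeing the data. For OB minus uninduced in NC cells it became -0.0275 after centring and -0.0156 over exons and introns, and in siDNMT1 cells -0.0148 after centring. The other 40 values were not taken as moved, though some of them could not move. Leaving out Bglap and Bglap2 could not change a promoter median, since neither has a promoter level. No paired analysis was possible because each condition has 1 library and the groups share a single replicate number. Depth is unknown, so no level has an error, and differences between single libraries cannot be told apart from variation between cultures.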

Other observations

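The genes of Dspp, Dmp1, Ibsp, Mepe and Spp1, which encode the family of acidic phosphoproteins of bone and dentin, lie side by side at chr5:104170712-104441050. None of the 5 genes had a promoter or UTR level in any library, and of 25 possible entries 6 were listed in all 4 libraries, 2 in some and 17 in none. Of all coding genes 36% had no promoter level in any library. A 5′ UTR level was listed in all 4 libraries for 52.3% of them and a 3′ UTR level for 19.8%. The Dspp exons stood at 0.297 in NC uninduced, 0.277 in siDNMT1 uninduced, 0.266 in NC OB and 0.259 in siDNMT1 OB, and its introns at 0.338, 0.334, 0.332 and 0.310. Mepe had higher levels, with exons at 0.519, 0.489, 0.499 and 0.489 and introns at 0.799, 0.794, 0.791 and 0.775. In these Dspp and Mepe entries NC uninduced was highest and siDNMT1 OB was lowest or level with the lowest. The Ibsp introns were also highest in NC uninduced (0.561) and lowest in siDNMT1 OB (0.549). So were the medians over all exons (0.361 and 0.334) and over all introns (0.424 and 0.4003). This order was thus not particular to the cluster, and the share of all entries with it was not counted. The Dmp1 exons had another order, with siDNMT1 uninduced highest at 0.779 and NC OB lowest at 0.707.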
